A study of Mus musculus with 2 samples.

Results

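Spp1 Arg1 macrophages are a group of macrophages in the reperfused mouse heart that carry high levels of Spp1, which encodes the secreted matrix protein osteopontin, and Arg1, which encodes the enzyme arginase 1. They were chosen by counts of unique molecular identifiers (UMIs, 1 per captured transcript) in single cells. A cell was eligible with at least 4000 UMIs, at most 20% of them mitochondrial, and under 0.1% from the neutrophil genes G0s2, Il1r2, Hdc, Mmp9, Csf3r and Cxcr2. Of the eligible cells, members had at least 5 UMIs of Arg1, at least 50 of Spp1, fewer than 10 of Ccl24 and fewer than 3 of the resident macrophage genes Lyve1, Folr2, Cbr2 and Timd4 together. This left 921 of 11297 cells, with 406 of 5087 cells in the splenectomy library and 515 of 6210 cells in the sham library.

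The cells were leukocytes selected from hearts by magnetic beads against CD45, and they were read with a droplet method that counts the 3′ ends of transcripts. The splenectomy group had its spleen removed, and the sham group had sham surgery. Which library is which was read from the sample titles alone: SPX in 1 title was taken to mean splenectomy, and the title without it was taken as the sham group of the study's design. All mice were wild-type C57BL/6 males aged 8 weeks, and all had ischemia-reperfusion: the left anterior descending artery of the heart was closed for 60 min and then opened for 24 h, so that neither group is uninjured. Each group is 1 library, and the labels do not say how many hearts it holds. With 1 library each, no test between the groups can be made. The intervals below are 95% intervals, exact except where stated, and cover counting error only. The libraries held 48024013 and 53512625 UMIs after splenectomy and sham surgery. They shared 9 cell barcodes, of which 1 belonged to a member and none to a member in both libraries.

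After an infarct, monocytes leave the blood, enter the injured heart and become macrophages, while macrophages that live in the heart before the injury carry genes such as Lyve1 and Folr2. Macrophages rich in Spp1 and Arg1 are known from injured heart, lung and tumours and are linked there to matrix repair and to tissue with little oxygen. Arginase 1 splits arginine into urea and ornithine, the precursor of polyamines and proline. Osteopontin binds integrins and CD44 on other cells.

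Members made up 15.6% (14.2 to 17.0%) of the eligible cells in the splenectomy library and 18.6% (17.1 to 20.05%) in the sham library. The difference was -2.96 percentage points (-4.99 to -0.92), with an approximate interval combined from the exact limits of both shares. This difference was -0.88 points when cells with any UMI of the resident genes were left out. It also depends on the Ccl24 limit, which kept out more cells after splenectomy than after sham surgery, and no higher Ccl24 limit was tried. As a share of all barcodes, members were 7.98% (7.25 to 8.76%) after splenectomy and 8.29% (7.62 to 9.01%) after sham surgery, intervals that overlap. Members were deeply read and similar in depth, with a median of 17923 UMIs per cell in the splenectomy library and 17800 in the sham library, against 13317 and 13283.5 UMIs over all eligible cells of the same libraries. Their median mitochondrial share was 2.16% after splenectomy and 1.69% after sham surgery.

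The 2 genes that chose the members spread widely among them. Spp1 ran from its limit of 50 UMIs per cell to 1991 in the splenectomy library, with a median of 202, and from 50 to 2642 in the sham library, with a median of 200. The 41 members with the most Spp1 after splenectomy held 33.5% of its UMIs, and the 52 members with the most after sham surgery held 33.1%. Arg1 had a median of 43 UMIs per member and a maximum of 254 after splenectomy, against a median of 37 and a maximum of 267 after sham surgery. Neither gene showed a gap at its limit: 22 members of the splenectomy library and 28 of the sham library lay just inside it with 50 to 59 Spp1 UMIs, and 17 and 33 cells that met the other limits lay just outside with 40 to 49. The cells just inside the Spp1 limit had 449.5 CPM (counts scaled to a fixed total per library) of Fabp5 after splenectomy and 616 after sham surgery, and those just outside had 452 and 213 CPM. At the Arg1 limit, 15 members in each library had 5 or 6 UMIs, and 21 cells after splenectomy and 31 after sham surgery had 3 or 4. The other limits bore unequally on the libraries. The Ccl24 limit alone kept out 131 cells after splenectomy and 51 after sham surgery, and the resident gene limit alone kept out 29 and 84.

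**Figure D1:**
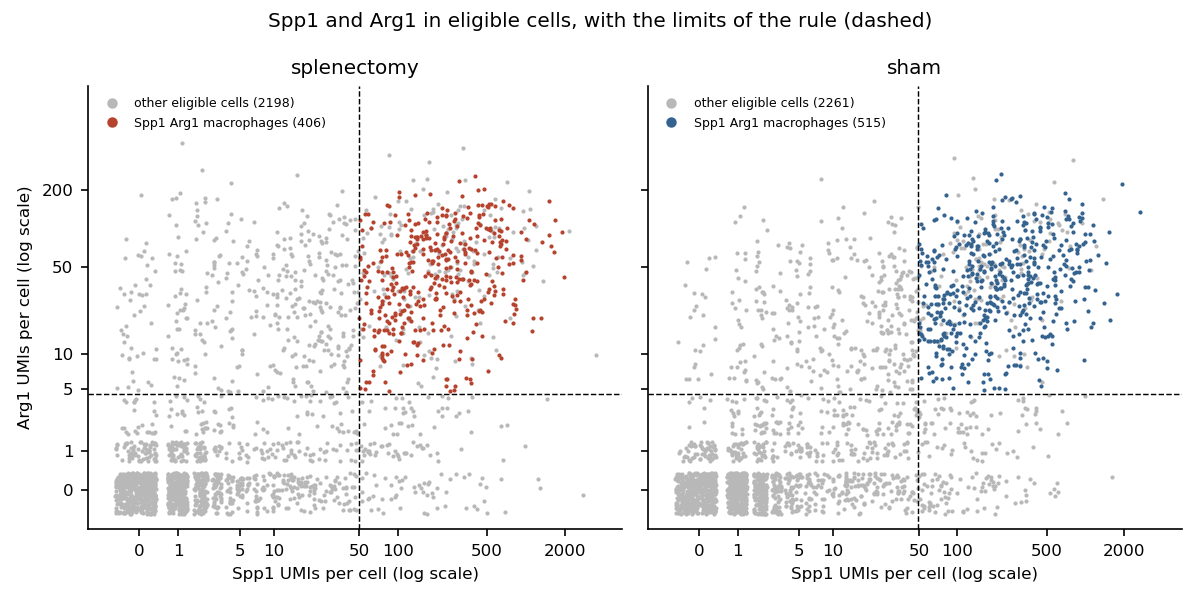
Spp1 UMIs per cell (horizontal, log scale) against Arg1 UMIs per cell (vertical, log scale) for each eligible cell, with the splenectomy library on the left and the sham library on the right; points are jittered and dashed lines are the limits of 50 and 5 UMIs. The 406 and 515 members (coloured) run on from the other cells (grey) without a gap, and grey cells inside both limits failed on Ccl24 or the resident genes.

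The members carried the genes of macrophages. All 15 genes of a list of general macrophage markers were measured, among them Cd68, a protein of macrophage lysosomes, at 468.5 CPM in the splenectomy library and 489 CPM in the sham library, and Csf1r, the receptor for the macrophage growth factor, at 193 and 192 CPM. Members did not stand above the other eligible cells in this list. Its median log2 ratio over them was -0.10 after splenectomy and -0.09 after sham surgery. In both libraries, 0 of its genes were at least 1.5-fold above them and 2 at least 1.5-fold below. The list summed to 20465 CPM in members after splenectomy and 19504 CPM after sham surgery. Of the groups defined below, Ccl24-high macrophages had 20706 and 19089 CPM and resident macrophages 30917 and 28796 CPM. C1q-high Arg1-low cells had 29485 and 28526 CPM and classical monocytes 28606 and 26866 CPM. The sum thus does not set members apart from monocytes as macrophages. When each member was thinned to 4000 UMIs, 79.8% (75.6 to 83.6%) had a UMI of Cd68 after splenectomy and 81.2% (77.5 to 84.5%) after sham surgery, against 10.4% of 48 and 18.9% of 37 B cell-like cells, which should lack it. Other genes of the list were found in fewer members. Adgre1 was found in 28.6% and 33.8%, against 6.25% and 5.41% of B cell-like cells, and C1qa in 26.8% and 34.6%, against 8.33% and 5.41%. The median depth before thinning was 6778 UMIs in the B cell-like cells of the splenectomy library and 5873 UMIs in those of the sham library. Ccr2, the receptor by which monocytes leave the bone marrow, was found in 70.0% (65.2 to 74.4%) of thinned members after splenectomy and 67.8% (63.5 to 71.8%) after sham surgery, against 10.4% and 8.11% of B cell-like cells. The monocyte surface gene Ly6c2 was found in 30.0% and 38.4%, against 16.7% and 16.2%. Whether the cells came from blood cannot be read from these values, because the rule itself removed cells with resident genes.

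Markers of other cells were mostly low. B cell markers summed to 21.7 CPM in members of the splenectomy library and 15.1 CPM in those of the sham library, cardiomyocyte markers to 17.8 and 13.9 CPM, and T and NK cell markers to 1.74 and 18.5 CPM. Of the 14 T and NK markers, 8 were at 0 after splenectomy and 2 after sham surgery, and 1 sham cell held 98.2% of the Gzma UMIs. Dendritic cell markers summed to 258 CPM after splenectomy and 485 CPM after sham surgery, nearly all of it Bst2, which macrophages express and interferon raises. Among fibroblast markers, Col1a1 and Pdgfra were at 0 in both libraries, and Gsn, which macrophages also express, held nearly all of the UMIs. The highest sum was that of the platelet and erythroid markers, with 2172 CPM in members after splenectomy and 2635 CPM after sham surgery. Nearly all of it was Pf4, which macrophages also make, at 2070 and 2514 CPM. The platelet genes Gp9 and Gp1bb were at 0 in both libraries, but Ppbp, another platelet gene of the list, was present in both. Its values are given with the chemokines below, and the part of platelet RNA was not tested. Neutrophil markers summed to 1385 CPM in members after splenectomy and 480 CPM after sham surgery, although the rule had limited 6 of the 17 genes of that list. Of its genes, Ngp was at 0 after splenectomy and 0.205 CPM after sham surgery, and Ly6g was at 0.134 and 0.103 CPM. Both were also scarce in the cells above the neutrophil limit, Ngp at 70.3 and 13.5 CPM and Ly6g at 29.8 and 15.3 CPM. S100a8 had 44109 and 29686 CPM there. The low values of Ngp and Ly6g in members thus cannot show how much neutrophil RNA members held.

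The 5 markers that describe the group are given as values without a test, since Spp1 and Arg1 chose the cells. Spp1 (ENSMUSG00000029304, chr5:104435118-104441050, plus strand, mm10) stood at 16309.5 CPM in the splenectomy library and 16721.6 CPM in the sham library. Arg1 (ENSMUSG00000019987, chr10:24915221-24927484, minus strand) stood at 3105 CPM and 2626 CPM. Pdpn, which encodes podoplanin, a surface ligand of the platelet receptor CLEC-2, had 350 CPM after splenectomy and 299 CPM after sham surgery, a log2 ratio of 0.23 (0.15 to 0.31). Fabp5, a carrier of fatty acids inside the cell, had 986 CPM after splenectomy and 1202 CPM after sham surgery, a log2 ratio of -0.29 (-0.33 to -0.24). Ccl7, a chemokine that acts on Ccr2, had 2470 CPM after splenectomy and 3509 CPM after sham surgery, a log2 ratio of -0.51 (-0.53 to -0.48). Pdpn and Fabp5 thus differed little between the libraries, and Ccl7 was lower after splenectomy. Fabp5 was the least even of these: thinned members held it in 53.4% after splenectomy and 53.0% after sham surgery, against 16.7% and 29.7% of B cell-like cells, and its 41 and 52 highest members held 66.0% and 65.2% of its UMIs.

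Beside Spp1, Arg1, Pdpn, Ccl7 and their fellow chemokines, the genes with the highest ratio over all other eligible cells included F7, Pde4d, Nt5e, Gpnmb, Hilpda, Inhba and Ctsl. Over 10434 genes, 25 (0.240%) were higher in members than in the other eligible cells of both libraries by 2-fold or more and 877 (8.41%) lower, and this contrast is the one the rule used. The other eligible cells included B cell-like cells as well as macrophages and monocytes, so a high ratio does not set members apart from the nearest macrophages. F7, which encodes coagulation factor VII, was 1.76 log2 units above the other cells after splenectomy and 1.87 after sham surgery. Pde4d, a phosphodiesterase that breaks down cyclic AMP, was 1.87 and 1.64 above, and Nt5e, the surface enzyme CD73 that makes adenosine, was 1.58 and 1.76 above. Gpnmb, a membrane glycoprotein of lipid-laden macrophages, was 1.21 and 1.11 above, but it was detected in only 16.0% of members after splenectomy and 16.7% after sham surgery. Hilpda, which slows the breakdown of lipid droplets, was 1.10 and 1.08 above, and Ctsl, a lysosomal protease, was 1.15 and 1.15 above.

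For comparison, 4 other groups of eligible cells were cut by counts as well. Ccl24-high macrophages had at least 10 Ccl24 UMIs and fewer than 3 resident gene UMIs. Resident macrophages had at least 3 resident gene UMIs. C1q-high Arg1-low macrophages had at least 20 UMIs of the complement genes C1qa, C1qb and C1qc and none of Arg1. Classical monocytes had at least 5 UMIs each of Ly6c2 and Chil3 and under 50 of Spp1. The C1q-high Arg1-low cells and the classical monocytes also had fewer than 10 Ccl24 UMIs and fewer than 3 resident gene UMIs. Nt5e had 64.8 CPM in members of the splenectomy library, against 36.2, 7.0, 8.11 and 17.2 CPM in these groups in that order, and 63.0 CPM in members of the sham library, against 23.2, 13.6, 9.28 and 17.3 CPM. Pde4d had 48.99 CPM in members after splenectomy, against 21.1, 9.16, 4.73 and 11.8 CPM, and 49.2 CPM in members after sham surgery, against 25.2, 17.2, 5.90 and 13.5 CPM. Both genes were above all 4 groups in both libraries, as was Gpnmb. Nt5e, Pde4d and Gpnmb were picked after these values were seen. F7, Hilpda, Inhba, Ctsl, Arg1, Pdpn and Ccl7 were not among the 20 genes furthest above all 4 groups. The last of those 20 was 0.254 log2 units above its closest group. For F7 and the others, some group in some library thus lay closer to members than that, or above them. On the other side, Cybb, the catalytic subunit of the phagocyte oxidase, was lower in members than in all 4 groups, with 186 CPM after splenectomy and 172 CPM after sham surgery, where the lowest other group had 359 and 269 CPM. Adgre5, the adhesion receptor CD97, had 32.1 CPM after splenectomy and 32.8 CPM after sham surgery, where the lowest other group had 80.4 and 64.1 CPM.

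**Figure D2:**
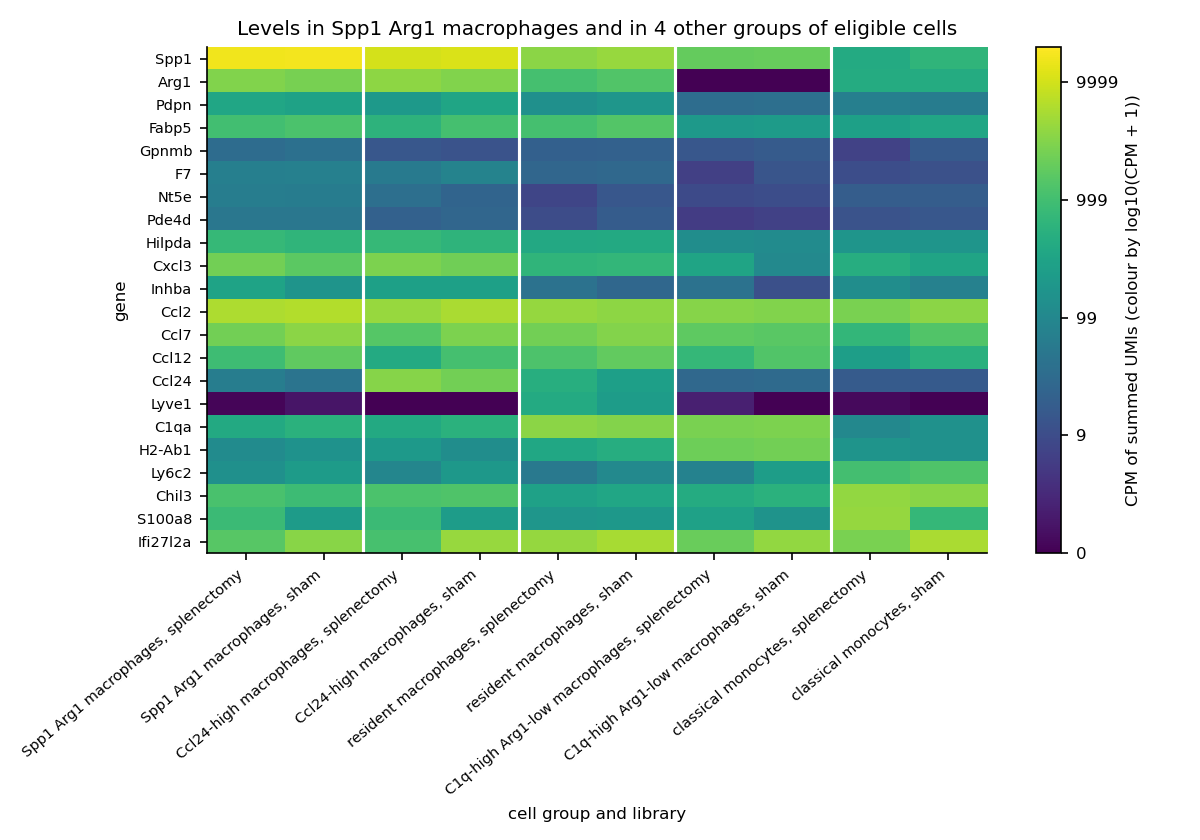
Level of 22 genes (rows) in 5 groups of eligible cells (columns), each with the splenectomy library left of the sham library, as colour on a scale of log10(CPM + 1). Spp1 is highest in Spp1 Arg1 macrophages, Ccl24 in Ccl24-high macrophages, C1qa in resident and C1q-high cells and Chil3 in classical monocytes, genes that the count limits used; Nt5e and Pde4d, which no limit used, are also highest in Spp1 Arg1 macrophages.

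Genes of sugar use were high in members and in Ccl24-high macrophages alike. The 17 genes of glycolysis, which carry glucose uptake and its breakdown to lactate, summed to 11458 CPM in members of the splenectomy library, against 11131 CPM in Ccl24-high, 5975 CPM in resident, 5623 CPM in C1q-high Arg1-low cells and 7628 CPM in monocytes. In the sham library the sums were 10142 CPM in members, against 9971, 6241, 5209 and 6958 CPM in the same order. Genes of the hypoxia response, most of which are known targets of the factor HIF-1, summed to 5793 CPM in members after splenectomy, against 5995, 2922, 2974 and 3583 CPM, and to 5104 CPM in members after sham surgery, against 5706, 3047, 2460 and 3454 CPM. Both lists were highest in members and Ccl24-high cells. The genes of antigen presentation by MHC class II summed to 2542 CPM in members after splenectomy, against 2674 CPM in Ccl24-high, 3560 CPM in resident, 15988 CPM in C1q-high Arg1-low cells and 2834 CPM in monocytes, and to 3074 CPM in members after sham surgery, against 2834, 4564, 16494 and 3451 CPM. The C1q-high Arg1-low cells alone stood far above the rest, and members, Ccl24-high cells and monocytes were alike low.

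Between the libraries, few genes of the members differed by much. Among 7757 genes that reached 50 counts in 1 of the libraries, 29 (0.374%) were higher after splenectomy by 2-fold or more and 49 (0.632%) lower. At 1.5-fold, 131 (1.69%) were higher and 275 (3.55%) lower. The gene lists below count members of a list at 1.5-fold with at least 20 counts over both libraries, and of all 9987 such genes 389 (3.90%) were higher and 652 (6.53%) lower, with a median log2 ratio of -0.03.

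Interferon-stimulated genes were lower in members of the splenectomy library. These genes answer the interferons that cells release on sensing viral or misplaced nucleic acid. Of 52 measured genes of the list, 30 were at least 1.5-fold lower, 7 of them at least 2-fold, and 2 were at least 1.5-fold higher. The median log2 ratio of the list was -0.67, against -0.03 over all genes, and 48 of the 52 genes lay below 0. The earlier results of these data already showed lower levels of this class of genes in macrophages, so the list is not independent evidence of the direction.

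Ifi27l2a, a small interferon-induced protein of membranes (ENSMUSG00000079017, chr12:103442167-103443680, minus strand), had 1548 CPM in the splenectomy library and 3379 CPM in the sham library, a log2 ratio of -1.13 (-1.16 to -1.10). Its median was 13 UMIs per member after splenectomy and 56 after sham surgery. Irf7, a factor that amplifies interferon production, had 117 CPM after splenectomy and 207 CPM after sham surgery, and its log2 ratio was -0.83 (-0.95 to -0.71). Bst2, which tethers budding viruses to the cell, had 254 CPM and 482 CPM (log2 ratio -0.92, interval -1.002 to -0.847), and Slfn5, of the schlafen family, had 79.5 and 149 CPM, a log2 ratio of -0.91 (-1.05 to -0.77). The share of members with a UMI was lower after splenectomy as well, at 92.1% and 99.03% for Ifi27l2a, 52.0% and 86.0% for Irf7 and 89.7% and 96.9% for Bst2. Rsad2, the antiviral enzyme viperin, had 57.8 CPM after splenectomy and 94.0 CPM after sham surgery, but 1 cell of the splenectomy library held 30.1% of its UMIs, and its log2 ratio was -0.70 with all members and -1.21 without the 1% of members highest in it. Slfn2, an abundant gene of the list, was higher, with 1087 CPM after splenectomy and 886.5 CPM after sham surgery, a log2 ratio of 0.29 (0.25 to 0.34), and Isg15, a ubiquitin-like modifier, had 239 and 250 CPM, a log2 ratio of -0.07 (-0.15 to 0.02). Cxcl10, a chemokine for T cells that interferon also drives, had a log2 ratio of 0.34, but 1 cell of the splenectomy library held 32.0% of its UMIs, and the ratio was -0.55 without the highest 1% of members. Several families of the list, such as Oas and Slfn, hold near copies whose reads can be shared.

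The summed level of this list was lower after splenectomy in the other groups as well. A large part of the sum in members was Ifi27l2a alone, with 1548 CPM after splenectomy and 3379 CPM after sham surgery. It was 5394 CPM in members after splenectomy and 8370 CPM after sham surgery, 4468 and 10335 CPM in Ccl24-high macrophages, 8061 and 11339 CPM in resident macrophages, 6310 and 10422 CPM in C1q-high Arg1-low cells, and 8441 and 13464 CPM in monocytes. The B cell-like cells differed in the same direction for the most abundant gene. A UMI of Ifi27l2a was found in 76.4% of thinned members after splenectomy and 96.9% after sham surgery, and in 66.7% and 91.9% of B cell-like cells. Their own expression and RNA from outside the cell cannot be told apart in these shares. The part of such outside RNA in the result was not tested. For Rsad2 the shares were 6.90% (4.63 to 9.81%) and 14.4% (11.5 to 17.7%) of members, against 4.17% and 2.70% of B cell-like cells.

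The factors that carry the interferon signal are known to bind paired GAAA repeats in promoters. The stretches of 120 bases below, taken from RefSeq on GRCm38.p6, lie within the 250 bases before the start sites of 3 genes that were at least 1.5-fold lower after splenectomy and of Isg15, whose log2 ratio was near 0, and are printed in the direction of the gene. Capitals mark every match, on either strand, of a pair of GAAA repeats with any 2 bases between them. The Rsad2 match lies on the strand opposite to the gene and is thus printed as its reverse complement, and the 2 matches in Bst2 and the 3 in Isg15 overlap one another.
Rsad2 (chr12:26456508-26456627, minus strand): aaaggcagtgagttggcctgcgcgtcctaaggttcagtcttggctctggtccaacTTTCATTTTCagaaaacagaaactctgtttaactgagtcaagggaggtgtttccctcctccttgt
Bst2 (chr8:71537532-71537651, minus strand): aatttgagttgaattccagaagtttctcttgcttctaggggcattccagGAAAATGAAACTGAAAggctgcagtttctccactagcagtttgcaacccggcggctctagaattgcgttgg
Slfn5 (chr11:82951892-82952011, plus strand): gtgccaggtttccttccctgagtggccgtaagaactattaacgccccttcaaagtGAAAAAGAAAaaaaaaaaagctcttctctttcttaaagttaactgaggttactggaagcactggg
Isg15 (chr4:156200820-156200939, minus strand): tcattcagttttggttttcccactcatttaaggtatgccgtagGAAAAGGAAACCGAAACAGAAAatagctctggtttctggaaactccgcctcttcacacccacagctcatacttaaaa

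Of the 40 interferon-stimulated genes with a promoter window of 300 bases in the RefSeq table, 28 (70.0%) held this match, against 3.99% of 27025 genes overall and 4.10% of 7944 genes measured in members. It was present in 14 of the 22 genes (63.6%) that were at least 1.5-fold lower after splenectomy and in 14 of the 18 others (77.8%), so the letters did not separate the genes that were lower from those that were not. A match is a description of the window and not a site shown to be bound.

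The 12 genes with the highest ratios after splenectomy were Lcn2, Wfdc21, S100a8, Saa3, Tmem176a, Dmkn, Lrg1, Timp1, Vcan, Ifitm1, S100a9 and Il6, with log2 ratios of 2.22 to 0.98. All 12 were also higher after splenectomy in the other eligible cells, so the difference was not particular to members. There Lcn2 had 171 CPM after splenectomy and 49.8 CPM after sham surgery, S100a8 had 1080 and 282 CPM, and Saa3 had 921 and 268 CPM. Vcan had 320 and 153 CPM in those cells, Il6 135 and 40.4 CPM, and Ifitm1 251 and 203 CPM. Saa3, an acute-phase apolipoprotein (ENSMUSG00000040026, chr7:46711998-46715700, minus strand), had 633.5 CPM in the splenectomy library and 214 CPM in the sham library, a log2 ratio of 1.57 (1.49 to 1.64). It was found in 41.6% (36.8 to 46.6%) of thinned members after splenectomy and 26.2% (22.5 to 30.2%) after sham surgery, against 6.25% and 2.70% of B cell-like cells. Timp1, an inhibitor of matrix metalloproteinases, had 293 CPM after splenectomy and 128 CPM after sham surgery, a log2 ratio of 1.19 (1.09 to 1.30). Vcan, the matrix proteoglycan versican that monocytes also make, had 373 CPM after splenectomy and 179 CPM after sham surgery. Its log2 ratio was 1.06 (0.97 to 1.15). Il6, the cytokine that drives the acute-phase response, had 86.2 and 43.9 CPM, a log2 ratio of 0.98 (0.80 to 1.15). Of the members, 29.1% had a UMI of it after splenectomy and 20.2% after sham surgery. The Il6 ratio rested on few cells, since the 41 and 52 members with the most held 78.9% and 85.0% of its UMIs.

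Part of the neutrophil marker list moved with these genes. Of its 13 measured genes, 6 were at least 1.5-fold higher after splenectomy, among them S100a8 with 862 CPM and 226 CPM, Lcn2 with 87.4 and 18.8 CPM, Wfdc21 with 75.5 and 18.2 CPM, and S100a9 with 262 and 127 CPM. Another 4 lay below 0, and Csf3r, the receptor for the granulocyte growth factor, was at least 1.5-fold lower, with 10.4 CPM after splenectomy and 16.4 CPM after sham surgery. G0s2 had 11.8 and 16.9 CPM, Mmp9 had 7.50 and 8.73 CPM and Cxcr2 had 2.54 and 2.67 CPM, and the rule limited these 4 genes. After thinning, 56.4% (51.4 to 61.3%) of members had a UMI of S100a8 after splenectomy and 39.8% (35.55 to 44.2%) after sham surgery, against 41.7% and 40.5% of B cell-like cells. S100a9 was found in 35.7% and 31.65% of members, against 37.5% (24.0 to 52.6%) and 45.9% (29.5 to 63.1%) of B cell-like cells. Its share in members thus did not exceed that of B cell-like cells in either library, nor did that of S100a8 after sham surgery. The levels did not all follow the shares. After splenectomy S100a9 had 262 CPM in members and 140 CPM in B cell-like cells, and after sham surgery 127 and 163 CPM. S100a8 had 862 and 182 CPM after splenectomy, and 226 and 151 CPM after sham surgery. The B cell-like cells held fewer UMIs before thinning, so their shares need not give the background of members. Cells above the neutrophil limit had 116005 CPM of the list after splenectomy and 78715 CPM after sham surgery, and B cell-like cells had 429 and 482 CPM. The ratio of S100a8 to S100a9 was 3.29 in members after splenectomy and 1.78 after sham surgery, against 0.80 and 0.81 in the cells above the neutrophil limit and 1.30 and 0.93 in B cell-like cells. S100a8 was uneven, with a median of 3 UMIs per member after splenectomy and 2 after sham surgery, and its 41 and 52 highest members held 73.5% and 57.2% of its UMIs. The part of neutrophil RNA in the result for Saa3, Timp1, Vcan and Il6 was not tested. In the cells above the neutrophil limit Saa3 had 296 CPM after splenectomy and 102 CPM after sham surgery, and Timp1 had 55.4 and 33.2 CPM, which is below their levels in members.

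**Figure D3:**
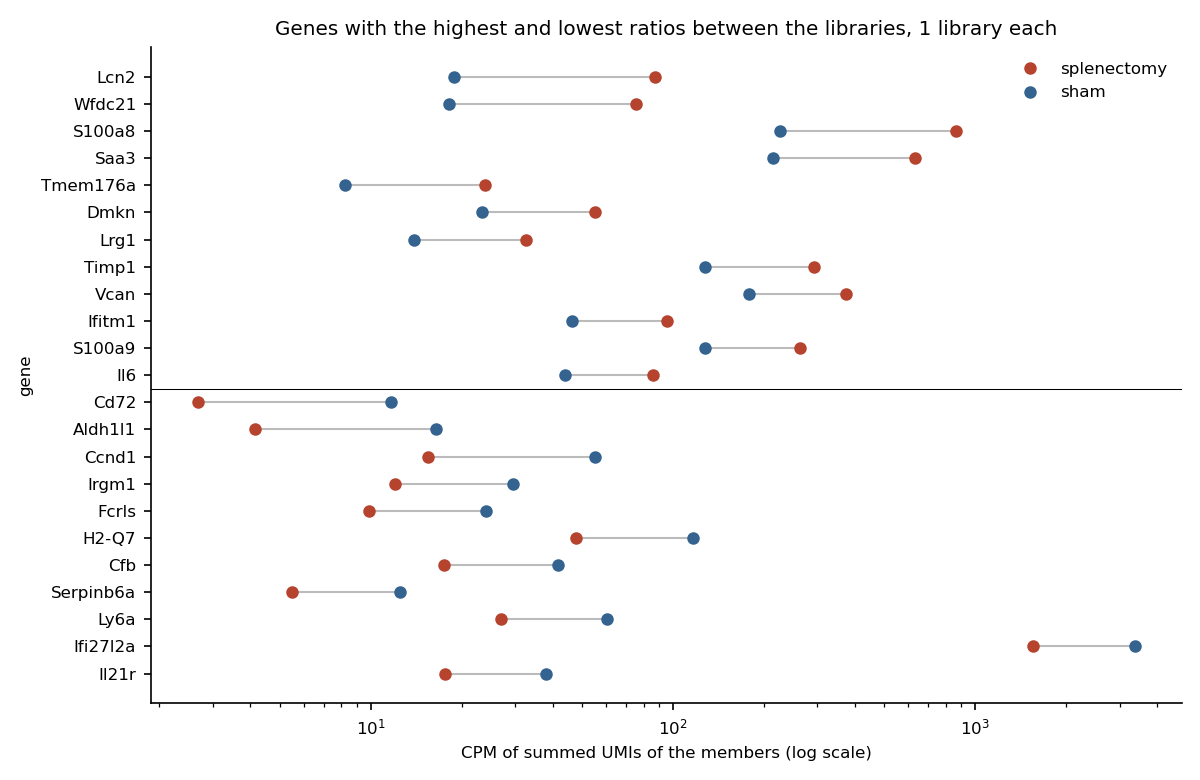
CPM of UMIs summed over members (horizontal, log scale) for the 12 genes with the highest ratio of splenectomy over sham (upper block) and for genes among the 12 with the lowest (lower block), with 1 point per library. Ifi27l2a is the most abundant gene of the lower block, at 1548 CPM in the splenectomy library and 3379 CPM in the sham library, and S100a8 and Saa3 are the most abundant of the upper block.

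The genes with the lowest ratios after splenectomy included Cd72, Aldh1l1, Ccnd1, Irgm1, Fcrls, H2-Q7, Cfb, Serpinb6a, Ly6a, Ifi27l2a and Il21r. Irgm1, a GTPase that interferon gamma induces, Ly6a and Ifi27l2a are on the interferon list. Ccnd1, which encodes cyclin D1, had 15.5 CPM after splenectomy and 55.0 CPM after sham surgery, a log2 ratio of -1.83 (-2.13 to -1.53), with a UMI in 16.3% and 36.3% of members. Aldh1l1, an enzyme of folate metabolism, had 4.15 and 16.4 CPM, a log2 ratio of -1.99 (-2.59 to -1.42). H2-Q7, a class I-like molecule, had 47.9 and 116 CPM, a log2 ratio of -1.28 (-1.46 to -1.11), though genes of this family are near copies and their reads can be shared. Cfb, complement factor B, had 17.5 and 41.7 CPM, a log2 ratio of -1.25 (-1.55 to -0.96). Cd72 and Serpinb6a rested on 16 and 34 cells with a UMI after splenectomy and on 58 and 56 after sham surgery. In the other eligible cells the genes named here were lower after splenectomy too, except Serpinb6a, with 72.8 CPM after splenectomy and 66.2 CPM after sham surgery. There Ccnd1 had 70.6 and 110 CPM, Aldh1l1 3.72 and 17.5 CPM, H2-Q7 108 and 209 CPM, and Cfb 19.5 and 47.1 CPM.

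Chemokine ligands of Ccr2 were lower or alike: Ccl12 had 911 CPM in the splenectomy library and 1753 CPM in the sham library, a log2 ratio of -0.94 (-0.98 to -0.90), Ccl7 had a log2 ratio of -0.51, and Ccl2 had 5934 and 6277 CPM, a log2 ratio of -0.08 whose sign turned under 2 of 17 other settings. Cxcl1, Cxcl2 and Cxcl3, ligands of the neutrophil receptor Cxcr2, were higher. Cxcl1 had 883 CPM after splenectomy and 478.5 CPM after sham surgery, a log2 ratio of 0.88 (0.83 to 0.94), Cxcl3 had 2387 and 1628 CPM (log2 ratio 0.55, interval 0.52 to 0.58), and Cxcl2 had 22549 and 16965 CPM, a log2 ratio of 0.41 (0.40 to 0.42). The other eligible cells differed in the same directions, with 473 and 880 CPM of Ccl12, 1172 and 1754 CPM of Ccl7, and 875 and 510 CPM of Cxcl3. For these genes the difference was thus not particular to members. Ppbp, a platelet gene that encodes another ligand of Cxcr2, had 98.9 and 119 CPM, a log2 ratio of -0.27. Of the 18 measured chemokines, 2 were higher and 2 lower by that fold, and Ccl24, 1 of the 2 higher, was held under 10 UMIs by the rule.

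Cytokines and matrix genes leaned upward. Of 20 measured inflammatory cytokine genes, 3 were higher and none lower by 1.5-fold, with a median log2 ratio of 0.22 and 18 genes above 0. Il1b, the inflammasome cytokine, had 5435 CPM after splenectomy and 3627 CPM after sham surgery, a log2 ratio of 0.58 (0.56 to 0.60), just under 1.5-fold. Of 24 measured genes of matrix and proteolysis, 4 were higher and 2 lower by 1.5-fold, with a median of 0.23. The 4 higher genes were Timp1, Vcan, Serpinb2 and F10. F10, coagulation factor X, had 390 CPM after splenectomy and 216 CPM after sham surgery, a log2 ratio of 0.85 (0.77 to 0.93). Fn1, fibronectin, had 2688 and 1874 CPM (log2 ratio 0.52, interval 0.49 to 0.55), and Thbs1, thrombospondin 1, had 2781 and 1970 CPM, a log2 ratio of 0.50 (0.47 to 0.53). The monocyte list, which holds some of the same genes, had 6 of 20 genes higher by 1.5-fold, among them Vcan, F10 and Hp, and 2 lower, Ly6c2 and Plac8.

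Genes of glycolysis and of the hypoxia response were slightly higher after splenectomy. Of 17 measured glycolysis genes, 16 lay above 0 with a median log2 ratio of 0.21, but none was at least 1.5-fold higher, and Slc2a3 alone was at least 1.5-fold lower, at 1.07 CPM after splenectomy and 2.26 CPM after sham surgery. The largest of the higher ones was Pfkl, a subunit of phosphofructokinase, with 80.2 CPM after splenectomy and 60.0 CPM after sham surgery, a log2 ratio of 0.42 (0.25 to 0.59). All 16 measured hypoxia genes lay above 0 with a median of 0.20, and Ankrd37 and P4ha2 were at least 1.5-fold higher, P4ha2 at only 1.74 CPM after splenectomy and 1.03 CPM after sham surgery. Ankrd37 had 30.1 CPM after splenectomy and 17.2 CPM after sham surgery, a log2 ratio of 0.80 (0.51 to 1.10), and Bnip3, which marks mitochondria for removal, had 88.7 and 63.5 CPM, a log2 ratio of 0.48 (0.32 to 0.64). The promoter stretches of both genes, again from RefSeq on GRCm38.p6 and in the direction of the gene, hold ACGTG, the core letters of the element that HIF-1 binds. Capitals mark the matches on either strand, and the Bnip3 match reads on both strands.
Ankrd37 (chr8:45999851-45999970, minus strand): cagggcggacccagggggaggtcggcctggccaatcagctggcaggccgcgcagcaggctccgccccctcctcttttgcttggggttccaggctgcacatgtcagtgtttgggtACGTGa
Bnip3 (chr7:138909552-138909671, minus strand): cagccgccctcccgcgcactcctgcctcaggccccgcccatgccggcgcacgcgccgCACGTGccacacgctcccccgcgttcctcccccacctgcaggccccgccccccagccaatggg

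The ACGTG core was present in 12 of 14 hypoxia genes with a window (85.7%) and in 11 of 16 glycolysis genes (68.8%), against 31.1% of genes measured in members and 21.8% of all genes. Its shortness makes it common.

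Several other lists hardly differed between the libraries. None of the 20 genes of the lipid-associated macrophage list was 1.5-fold higher or lower, with a median of -0.16. Trem2, a lipid receptor, had 228 CPM after splenectomy and 259 CPM after sham surgery, and Apoe, the lipid carrier, had 2414 and 1999 CPM. Of the 16 arginine and polyamine genes, 1 was at least 1.5-fold higher, Nos2, at 2.68 CPM after splenectomy and 0.924 CPM after sham surgery. Odc1, the first enzyme of polyamine synthesis, had 561.5 and 599.9 CPM. None of the 7 measured MHC class II genes was 1.5-fold higher or lower, and the sign of their median of -0.17 turned under other settings.

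**Figure D4:**
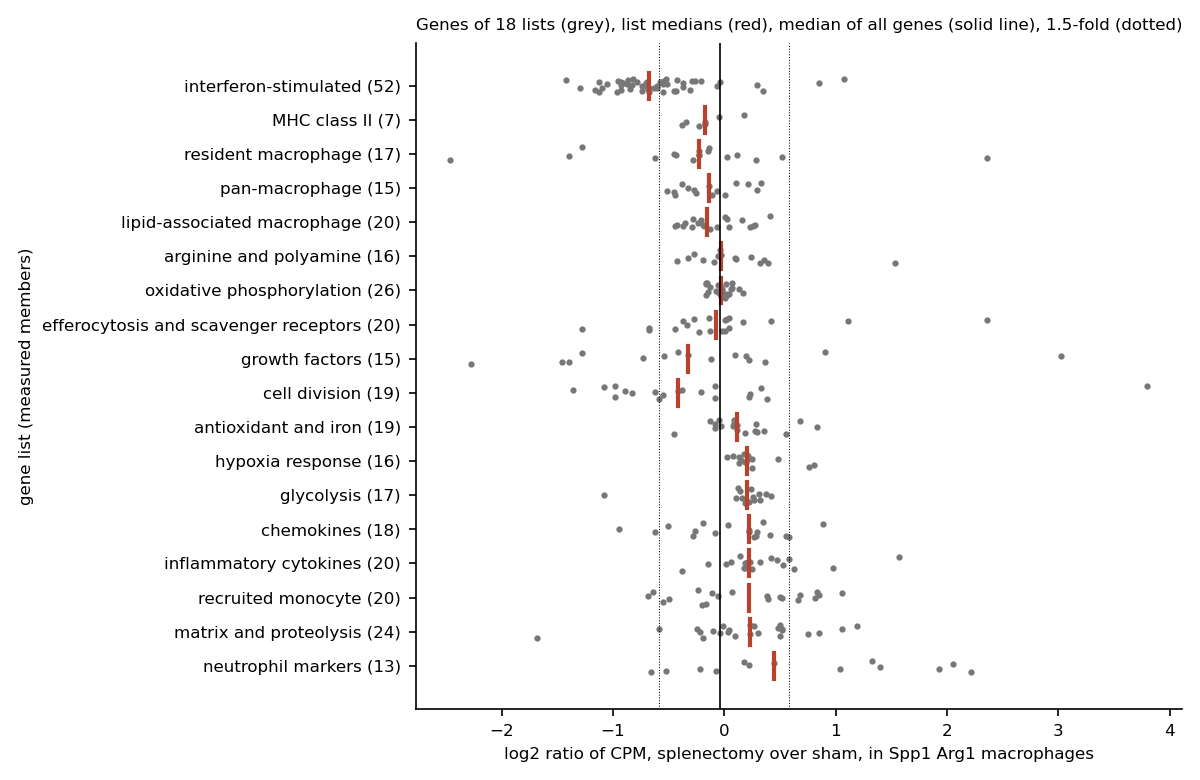
Log2 ratio of splenectomy over sham for the measured genes (grey points) of 18 lists, with the number measured beside each name, list medians (red bars), the median of all genes at -0.03 (solid line) and the 1.5-fold limits (dotted lines). The median of the interferon-stimulated list, at -0.67, is the only one outside the 1.5-fold limits, and the neutrophil list has the highest median, at 0.45.

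Members differed among themselves along Arg1 in both libraries. Members of each library were ordered by the share of their UMIs from Arg1 and cut into 3 equal groups of 135 or 136 cells after splenectomy and 171 or 172 after sham surgery, with median depths of 17450 to 18127.5 and 17575.5 to 18379 UMIs. Glycolysis genes summed to 10458, 11388 and 12572 CPM from the Arg1-low to the Arg1-high group after splenectomy, and to 9311, 9859 and 11259 CPM after sham surgery. Matrix genes without Spp1 went the same way, at 9898, 11012 and 13347 CPM after splenectomy and 7422, 8401 and 10077 CPM after sham surgery. MHC class II genes went the other way, at 3401, 2365 and 1825 CPM after splenectomy and 4243, 2699 and 2280 CPM after sham surgery. Interferon-stimulated genes were lowest in the Arg1-high group in both libraries, at 6264, 5807 and 4065 CPM after splenectomy and 8906, 8953 and 7245 CPM after sham surgery, and they were lower after splenectomy in each of the 3 groups. Their sums include the abundant Ifi27l2a, and the order without it was not examined. Marker lists of other cells moved along Arg1 too, and their part in these orders was not tested. The platelet and erythroid list, nearly all Pf4, summed to 905, 1952 and 3718 CPM from the Arg1-low to the Arg1-high group after splenectomy and to 1545, 2317 and 4048 CPM after sham surgery. The resident macrophage list, which also holds Pf4, summed to 2529, 3890 and 5788 CPM and to 3398, 4292 and 5738 CPM. Neutrophil markers summed to 1943, 1081 and 1114 CPM after splenectomy and to 424, 544 and 472 CPM after sham surgery. B cell markers summed to 52.3, 7.63 and 4.10 CPM and to 28.1, 3.98 and 13.3 CPM, highest in the Arg1-low group, as MHC class II genes were. The MHC class II gene H2-Ab1 was found in 95.8% and 94.6% of thinned B cell-like cells.

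Across single members thinned to 4000 UMIs, the genes that ranked highest with Arg1 in both libraries were Cxcl3, Fn1, Pf4, Prdx6, Ccl6, Pdpn, Thbs1 and Hilpda, of 1521 genes ranked. Spearman's rho was 0.39 after splenectomy and 0.27 after sham surgery for Cxcl3, and 0.37 and 0.23 for Pf4, platelet factor 4, which macrophages also make. The lowest were Cd52, Lyz2, Cst3, S100a4, Ifi27l2a, Fxyd5, Atox1 and Ly6c2, with rho between -0.16 and -0.32 over both libraries. These are weak correlations in sparse counts over 406 and 515 cells of 1 library each, and the cells of a library share its free RNA. Spp1 ranked highest with other genes, Ftl1, Cd9, Hilpda, Ctsl, Lgals3, Fabp5, Lpl and Ctsb, and rho between Arg1 and Spp1 was only 0.17 after splenectomy and 0.11 after sham surgery. When members were grouped by Spp1 instead, genes of the lipid-associated list without Spp1 summed to 13674, 15369 and 18762 CPM from low to high after splenectomy and to 14332, 15664 and 19249 CPM after sham surgery, and matrix genes showed no such order, at 11248, 11548 and 11388 CPM and 8220, 9027 and 8664 CPM.

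**Figure D5:**
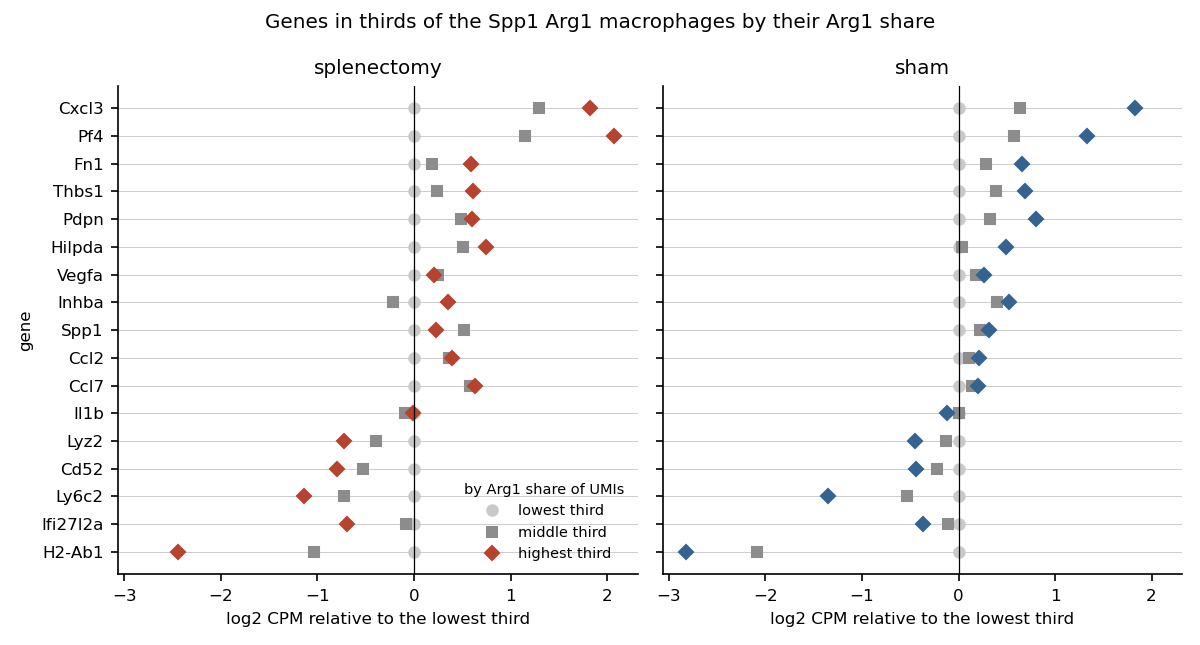
Log2 CPM of 17 genes relative to the Arg1-low group (horizontal) in 3 equal groups of members by Arg1 share of UMIs, with the splenectomy library on the left and the sham library on the right. Cxcl3, Pf4, Fn1, Thbs1 and Pdpn are higher, and Lyz2, Cd52, Ly6c2 and H2-Ab1 lower, in the Arg1-high group of both libraries.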

How the data were processed

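The deposited counts are UMIs of 32285 features in each cell barcode, made with Cell Ranger 5.0.0 per the file headers and on the mouse build mm10 per the submitters' processing notes; the sources used here do not give the annotation. Reads were not analysed here. The members, gene lists and comparisons were chosen with earlier results of these data known. UMIs were summed over members and scaled to CPM by their total. Ratios (splenectomy over sham) have exact 95% intervals for 2 Poisson counts, which cover counting error only, and a count of 0 was set to 3. Named genes are the rule genes, the markers, examples from the lists, the 12 highest and 12 lowest with at least 100 counts, a UMI in 10% of members and 1.5-fold, and the 15 highest over other eligible cells; genes singled out against 4 other groups were chosen after their values were seen. A gene that this rule names is not reported here. Mitochondrial, ribosomal, haemoglobin and predicted genes were not named. Doublets were kept in the main values, and removal by Scrublet was an alternative. Shares used cells thinned to 4000 UMIs, with cells of at least 10 UMIs of B cell markers as background. Positions of genes follow GENCODE vM21 (mm10). The steps were tested on simulated data. Tools were scanpy 1.11.5, matplotlib 3.10.9, pandas 2.3.3, scipy 1.17.1 and numpy 2.4.6 in python 3.11.15.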

Additional observations from a re-analysis of the deposited data

How the results depend on the processing

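No paired analysis was possible because each group holds 1 library. For the same reason no replicate could be left out. The share of members among eligible cells was lower after splenectomy under all 13 alternatives, and its difference was -0.88 points (13.1% after splenectomy and 14.0% after sham surgery) with 0 UMIs of resident genes. None of the 13 raised the Ccl24 limit on full counts. That limit alone kept out 131 cells after splenectomy and 51 after sham surgery, so whether the share is lower without it was not tested. Genes at least 2-fold higher and lower after splenectomy numbered 12 and 24 with members thinned to 4000 UMIs, 89 and 143 with a minimum of 20 counts, and 15 and 26 with a minimum of 100; these settings change how many genes can reach the count limit. The median of the interferon-stimulated list was between -0.82 and -0.59 under all 18 alternatives. The MHC class II median ran from -0.32 to 0.30 and was above 0 under 4 of 18. Over 64 results and 1094 alternative values, 981 stayed near the main value, 113 moved and 0 turned a called direction; the cause was not tested. Leaving out the 1% of members highest in each gene was chosen after seeing the data and gave 20 genes higher and 53 lower. Depth limits genes with few counts, and with 1 library per group differences between animals cannot be told apart from the treatment.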

Other observations

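Growth factor genes of the members went both ways. Of 15 measured genes, 2 were at least 1.5-fold higher after splenectomy and 5 at least 1.5-fold lower, with a median log2 ratio of -0.33 that was above 0 under 3 of 18 other settings. Inhba, which encodes a subunit of activin A, had 315 CPM in the splenectomy library and 169 CPM in the sham library, a log2 ratio of 0.90 (0.81 to 0.99). It was higher after splenectomy in the other eligible cells too, with 136 and 65.0 CPM. Ereg, the epidermal growth factor receptor ligand epiregulin, had 34.3 and 4.21 CPM, but only 33 members after splenectomy and 9 after sham surgery had a UMI of it. Gdf15, a stress-induced cytokine, had 5.49 and 26.5 CPM, with a UMI in 19 and 43 members. Areg, the related ligand amphiregulin, had 690 and 536 CPM.

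Of 19 measured antioxidant and iron genes, 2 were at least 1.5-fold higher after splenectomy and none lower, with a median log2 ratio of 0.11. The 2 were Mt2, a metallothionein, with 171 CPM after splenectomy and 96.1 CPM after sham surgery, and Gsr, glutathione reductase, with 107 and 67.0 CPM. Efferocytosis and scavenger genes went both ways: of 20 measured, 2 were at least 1.5-fold higher, 3 lower, and the median was -0.08. Cd163, a haemoglobin scavenger receptor, had 10.04 and 1.95 CPM and Mfge8, a bridge to dying cells, had 7.09 and 3.29 CPM, whereas Axl, a receptor for dying cells, had 16.6 and 26.5 CPM, Gas6, its ligand, had 1.61 and 3.90 CPM, and Abcg1, a cholesterol exporter, had 17.7 and 28.2 CPM. Respiratory chain genes stayed near 0: none of 26 was 1.5-fold higher or lower, with a median of -0.03.

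Genes of division were rare in members, and most of those measured had a lower ratio after splenectomy. Of 19 measured genes, 8 were at least 1.5-fold lower and 1 higher, where 6.53% of all genes were lower, and 14 lay below 0. The median log2 ratio was -0.41 and stayed below 0 under all 18 alternatives. Mcm6, a subunit of the replicative helicase, had 5.35 CPM after splenectomy and 11.3 CPM after sham surgery, a log2 ratio of -1.08 (-1.64 to -0.54), and Stmn1, which destabilises microtubules, had 10.04 and 15.4 CPM. Most of these genes rest on few counts. A UMI of Mki67, a marker of dividing cells, was found in 0.739% of thinned members after splenectomy and 0.583% after sham surgery, and Ccnb1, the higher gene, had 90.6% of its UMIs in 1 cell of the splenectomy library.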
